A study of Mus musculus with 6 samples.

Results

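The 10 genes described here are the core circadian clock genes of the mouse: Clock, Bmal1 (formerly Arntl), Per1, Per2, Per3, Cry1, Cry2, Nr1d1, Nr1d2 and Dbp. They were chosen by name, as every probe set that the platform annotation maps to 1 of these symbols. That gave 16 of the 22626 non-control probe sets, on an Affymetrix array whose annotation names 12393 genes. Retinal total RNA was measured at postnatal day 7 on 3 arrays from knockout mice and 3 arrays from wildtype mice, with the strain of both groups labelled C57BL/6. Each array gives 1 signal per probe set, and the signals were scaled so that all arrays had the same trimmed mean. The labels used here give neither the hour of day at which the retinae were taken nor the number of animals behind each array.

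The circadian clock is a transcriptional feedback loop that runs in most mouse cells. CLOCK and BMAL1 form a dimer that binds E-box motifs and switches on the Per and Cry genes, whose protein products then inhibit the dimer. A second loop adds NR1D1 and NR1D2, which repress Bmal1 through ROR elements, and DBP, which activates genes through D-box motifs. The adult mammalian retina holds a clock of its own, which is known for daily rhythms of melatonin and dopamine release and of photoreceptor disc shedding.

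Those motifs are what tie the members to each other, so the promoters of 1 member for each kind of link are shown. RefSeq windows on GRCm38.p6 were found for 9 of the 10 genes, 13 windows in all, since some genes had several. Each ran from 250 bases before the transcription start to 50 bases from it, and only windows with a motif match are shown. Capitals mark matches on either strand to 4 kinds of motif. The E-box was searched as CACGTG. The non-canonical E-box was searched as CACGTT, which reads AACGTG when it lies on the opposite strand. The D-box was searched as TTATGTAA and also, in its second known form, as TTACGTAA. The ROR element core was searched as TAGGTCA and also, in an alternative form, as TGGGTCA. No match overlapped another. The windows shown are Per1 at chr11:69098699-69098998 on the plus strand, Cry1 at chr10:85185005-85185304 on the minus strand, Per3 at chr4:151044616-151044915 on the minus strand, and Bmal1 at chr7:113207261-113207560 on the plus strand.
Per1: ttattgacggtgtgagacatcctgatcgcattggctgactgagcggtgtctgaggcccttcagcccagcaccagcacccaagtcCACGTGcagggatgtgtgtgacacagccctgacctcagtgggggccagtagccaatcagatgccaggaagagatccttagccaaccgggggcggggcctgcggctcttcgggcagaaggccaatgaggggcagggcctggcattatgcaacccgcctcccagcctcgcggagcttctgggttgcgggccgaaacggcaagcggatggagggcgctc
Cry1: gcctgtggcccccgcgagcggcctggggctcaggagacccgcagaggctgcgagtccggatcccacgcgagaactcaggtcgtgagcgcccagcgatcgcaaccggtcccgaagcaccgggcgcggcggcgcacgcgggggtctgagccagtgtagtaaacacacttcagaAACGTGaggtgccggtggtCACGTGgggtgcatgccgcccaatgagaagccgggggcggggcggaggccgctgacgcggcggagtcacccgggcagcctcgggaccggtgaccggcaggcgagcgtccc
Per3: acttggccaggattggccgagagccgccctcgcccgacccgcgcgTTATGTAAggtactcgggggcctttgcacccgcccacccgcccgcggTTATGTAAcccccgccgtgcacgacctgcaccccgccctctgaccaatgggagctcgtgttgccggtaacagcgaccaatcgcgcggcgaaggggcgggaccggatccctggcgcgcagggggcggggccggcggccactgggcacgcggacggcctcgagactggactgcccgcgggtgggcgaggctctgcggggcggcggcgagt
Bmal1: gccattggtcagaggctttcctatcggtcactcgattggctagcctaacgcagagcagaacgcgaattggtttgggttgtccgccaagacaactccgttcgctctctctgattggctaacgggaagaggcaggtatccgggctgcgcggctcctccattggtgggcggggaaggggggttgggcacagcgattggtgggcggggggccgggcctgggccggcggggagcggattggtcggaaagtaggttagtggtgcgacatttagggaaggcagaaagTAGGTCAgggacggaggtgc

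Per1 held an E-box that begins 166 bases before the start, and Cry1 held an E-box at 60 bases and a non-canonical one at 79 bases before it. Per3 held a pair of D-boxes, at 205 and 158 bases before the start. Bmal1 held a ROR element core from base 31 of the transcript. Of the members not shown, Cry2 and Nr1d1 had a non-canonical E-box, at 166 and 28 bases before the start. No window of Clock, Nr1d2 or Dbp held a match, and neither did the other windows of Per1 and Bmal1. Over all 32851 RefSeq windows of that length, an E-box was present in 7.15%, a non-canonical E-box in 4.68%, a D-box in 1.06% and a ROR element core in 6.45%. A match describes only the letters in these windows.

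The comparison asks whether clock transcripts differed between knockout and wildtype retinae, and how far they varied between arrays of a group. No clock gene probe set passed the test: of 12 that had a mean signal above the 40th percentile and were tested, 0 had a limma Benjamini-Hochberg adjusted p under 0.05, against 2 of all 13575 tested probe sets, or 0.0147%. The limma adjusted p was 0.999 for each of the 12, and 0 of them had an unadjusted p under 0.05, which 3.82% of all tested probe sets had. The tested probe sets cover 9 of the 10 genes, since both Per2 probe sets fell below the filter. Of the 12, 7 had a positive log2 fold change (knockout minus wildtype) and 5 a negative one, with a median of 0.023, against 0.00031 over all tested probe sets. Groups did not overlap for 1 of the 12, where 9.1% of all tested probe sets did not overlap. In whole retina, fewer cells of a type and less RNA per cell cannot be told apart.

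**Figure D1:**
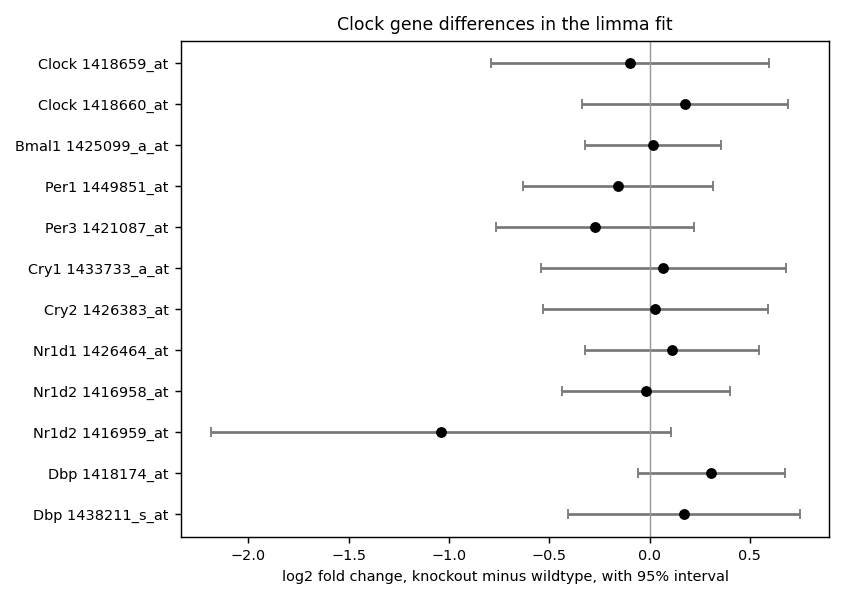
Log2 fold changes of the 12 tested clock gene probe sets, knockout minus wildtype, as points with 95% intervals from the limma fit, 1 row per probe set. Every interval spans 0, from the narrowest for Bmal1 (-0.32 to 0.36) to the widest for the Nr1d2 probe set 1416959_at (-2.19 to 0.11).

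Neither activator passed the test. Bmal1, the partner without which the clock stops in mice, had scaled signals of 712, 848 and 728 in knockout arrays 1 to 3, against 722, 697 and 841 in wildtype arrays 1 to 3. The arrays interleaved, with knockout array 2 and wildtype array 3 the highest. Its log2 fold change was 0.02 ± 0.15 (SE), and the 95% interval ran from 0.80 to 1.28 as a ratio of knockout to wildtype. The brightest array was 1.22 times the dimmest.

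Clock encodes the partner of BMAL1 in the dimer and was read by 2 probe sets. Probe set 1418660_at had 160.0, 217 and 301 in knockout retinae, against 224, 178 and 177 in wildtype retinae. The knockout arrays here spanned more than the wildtype arrays, with both the lowest and the highest value among them. Its log2 fold change was 0.18 ± 0.23 (SE). Probe set 1418659_at had 56.7, 148 and 147.8 in knockout arrays, against 119, 98.2 and 141 in wildtype arrays. Knockout array 1 was the low one of all 6, and the other 2 knockout arrays were the highest. That gave a log2 fold change of -0.10 ± 0.31 (SE), and 0.28 without knockout array 1.

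The repressors make up the largest group, with 5 genes and 8 probe sets. Per1, a period gene that also responds quickly to light and to cAMP signals, had 275, 173 and 190.1 in knockout retinae, against 237, 198 and 276 in wildtype retinae. The highest values of the groups were almost equal, and the lowest 2 arrays were knockout ones. Per1 had a log2 fold change of -0.16 ± 0.21 (SE), with a 95% interval of 0.65 to 1.25 as a ratio of knockout to wildtype.

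Per3, a period gene that the loop can run without in mice, was above the filter with 1 of its 3 probe sets. Probe set 1421087_at had 82.5, 61.3 and 75.4 in knockout arrays, against 105, 108 and 67.7 in wildtype arrays. Wildtype arrays 1 and 2 were above all knockout arrays, and wildtype array 3 lay among them. For this probe set the log2 fold change was -0.27 ± 0.22 (SE). The probe sets below the filter, 1421086_at and 1460662_at, had log2 fold changes of -0.08 and -0.12 and signals of at most 41.9 on any array. All 3 Per3 values were negative, and their groups overlapped. That of 1421086_at turned to 0.0058 without knockout array 1, 0.011 without wildtype array 1 and 0.021 without wildtype array 2. It was 0.10 without both knockout array 1 and wildtype array 2. Without rescaling, 1421086_at was 0.096 and 1460662_at was 0.077.

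Per2, a period gene needed for a stable rhythm in mice, was dim with both probe sets and was not tested. Probe set 1417602_at had 23.3, 31.6 and 35.5 in knockout arrays, against 37.3, 15.7 and 21.95 in wildtype arrays. Probe set 1417603_at had 8.76, 19.8 and 9.64 in knockout arrays, against 20.8, 34.1 and 30.2 in wildtype arrays. Its groups did not overlap, with the wildtype arrays higher, but the nearest arrays of the groups were 19.8 and 20.8. The log2 fold changes were 0.18 and -0.58, opposite in sign, and the pseudocount of 19.1 is as large as many of these signals.

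Cry1 and Cry2 encode the cryptochromes, the proteins that block the CLOCK and BMAL1 dimer most strongly. Cry1 had 127, 175 and 159 in knockout retinae, against 87.1, 168 and 200.5 in wildtype retinae. Both extremes were wildtype arrays, with wildtype array 1 the lowest. Cry1 had a log2 fold change of 0.07 ± 0.27 (SE), and -0.24 without wildtype array 1. Cry2 had 105, 180.25 and 195 in knockout retinae, against 118, 159.8 and 185 in wildtype retinae. Array 1 of each group was low and the other 4 lay close together. The log2 fold change of Cry2 was 0.03 ± 0.25 (SE).

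**Figure D2:**
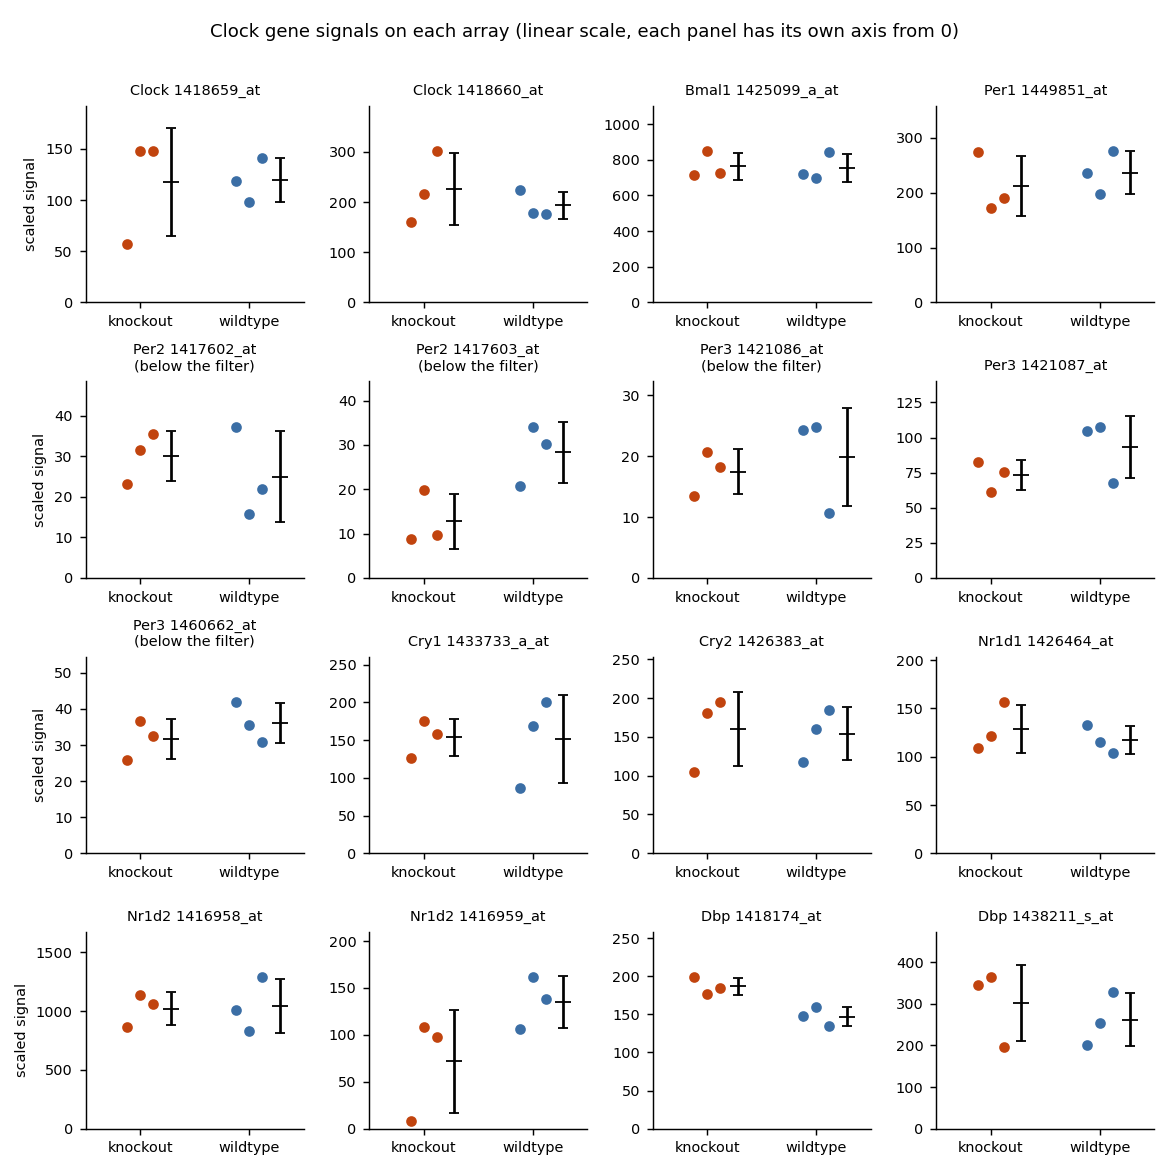
Scaled signal of each of the 16 clock gene probe sets, with 3 knockout arrays (left, red) and 3 wildtype arrays (right, blue) as points in the order of array number, and the mean ± SD as bars. Groups overlap in all panels except Per2 1417603_at and Dbp 1418174_at, and knockout array 1 is the low point for Nr1d2 1416959_at at 8.17.

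The stabilising loop held 2 genes, and neither passed the test. Nr1d1, or REV-ERB alpha, a haem-binding nuclear receptor that represses Bmal1, had 109, 121 and 157 in knockout arrays, against 132, 115 and 104 in wildtype arrays. The groups overlapped, with knockout array 3 the highest. Nr1d1 had a log2 fold change of 0.11 ± 0.19 (SE), and the 95% interval was 0.80 to 1.46 as a ratio of knockout to wildtype.

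Nr1d2, or REV-ERB beta, overlaps with Nr1d1 in function and was read by 2 probe sets that disagreed. The first, 1416958_at, had 864, 1138 and 1059.5 in knockout retinae, against 1012.5, 832 and 1286.5 in wildtype retinae. Its groups interleaved, and the log2 fold change was -0.02 ± 0.19 (SE). The second, 1416959_at, had 8.17, 109 and 98.2 in knockout retinae, against 106, 161 and 138 in wildtype retinae. Knockout array 1 was the low one of all 6, at a signal below the pseudocount of 19.1, and is not shown to be above background there. The wildtype arrays stayed within 1.52 times of each other for this probe set. This was a difference of -1.04 ± 0.51 on the log2 scale (SE; adjusted p = 0.999 by limma), and of -0.32 without knockout array 1 (limma adjusted p = 0.996).

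Knockout array 1 stood apart from the rest over the whole array too. Over all tested probe sets it correlated at 0.914 to 0.936 with the other arrays, which correlated at 0.958 to 0.979 among themselves. Its ratio of 3' to 5' signal for the Actb control was 2.17, against 1.69 and 1.90 in knockout arrays 2 and 3 and 1.44 to 1.64 in the wildtype arrays. The scaled signal of the 18S ribosomal RNA control was 609 on knockout array 1 and 2573 on wildtype array 2, against 38.8 to 54.9 on the other 4 arrays. The part of RNA quality in the Nr1d2 and Clock values was not tested.

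Dbp, an output gene whose protein is a PAR bZIP activator, was read by 2 probe sets with positive log2 fold changes. Probe set 1418174_at had 198, 176 and 185 in knockout retinae, against 148, 159 and 135 in wildtype retinae. All 3 knockout arrays lay above all 3 wildtype arrays, the only tested clock probe set with that separation. The mean was 187 ± 11.2 in knockout and 147 ± 12.3 in wildtype retinae (SD, n = 3 each). The difference on the log2 scale was 0.31 ± 0.16 (SE; adjusted p = 0.999 and unadjusted p = 0.090, both by limma), with a 95% interval of 0.96 to 1.60 as a ratio of knockout to wildtype.

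Probe set 1438211_s_at of Dbp, whose suffix marks probes shared between transcripts, had 344, 363 and 196 in knockout retinae, against 202, 254 and 329 in wildtype retinae. The groups overlapped fully, and the lowest array was a knockout one. Here the log2 fold change was 0.17 ± 0.26 (SE). With knockout array 1, 2 or 3 left out it was 0.057, 0.020 or 0.43, and leaving out wildtype array 1 or 3 gave 0.0098 or 0.34. The separation of the first probe set was therefore not matched by the second. Some measures of RNA quality and of other cell types also had groups that did not overlap. The Actb ratio was 1.92 ± 0.24 in knockout and 1.56 ± 0.10 in wildtype arrays (SD, n = 3 each; two-sided p = 0.1 by exact permutation, which is as low as 3 against 3 can give). The same ratio for Gapdh overlapped, at 1.07 ± 0.16 in knockout and 0.895 ± 0.080 in wildtype arrays (SD, n = 3 each; exact permutation p = 0.2). The summed signal of 4 muscle markers, 3 of them above the filter, was 190.2 to 246 in knockout and 284 to 368 in wildtype arrays. On its own, each of the 4 overlapped between groups. Des was 143 and 142 in wildtype arrays 1 and 2 but 86.5 in wildtype array 3, where Acta1 was 205. The dimmer Des probe set, which is not in the sum, had a mean of 59.3 in knockout against 49.0 in wildtype arrays. The summed signal of 3 ganglion cell markers was 3241 to 3403 in knockout and 2749 to 3239 in wildtype arrays. Most of that sum was Nefl, the one of them whose own groups did not overlap, with a mean of 2738 in knockout and 2289 in wildtype arrays. Sncg and the brightest probe set of Rbpms went the other way, with means of 419 and 143 in knockout against 548 and 160 in wildtype arrays. For that Rbpms probe set, knockout array 1 was the lowest of all arrays, at 61.2. The other Rbpms probe sets had higher means in knockout arrays, such as 160 against 141 and 73.5 against 63.3. The part of these measures in the Dbp values was not tested.

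The intervals show how large a difference these arrays could still hold. For 3 of the 12 tested probe sets, those of Bmal1, Nr1d1 and the first of Nr1d2, the whole 95% interval lay within 1.5-fold in either direction. For 11 of the 12 it lay within 2-fold, the exception being 1416959_at of Nr1d2. These intervals are per probe set and were not widened for the number of probe sets. They were computed with the pseudocount added, which understates folds of dim probe sets, and the upper limit for Nr1d1 was 1.46.

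The spread between arrays of the same group was next set against that of probe sets of like signal. The SD within groups on the log2 scale had a median of 0.30 over the 12 tested clock probe sets, against 0.23 over all tested probe sets. Each SD was also ranked among the 1000 tested probe sets nearest in mean signal, and 8 of the 12 lay above the 50th percentile. The steadiest were Dbp 1418174_at, at percentile 3.8, and Bmal1, at percentile 19.9. The most variable were Nr1d2 1416959_at, at percentile 99.2, and Clock 1418659_at, at percentile 91.1, both of which had their lowest signal on knockout array 1. The brightest array was over 2 times the dimmest for 3 of the 12 and for 23.3% of all tested probe sets.

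**Figure D3:**
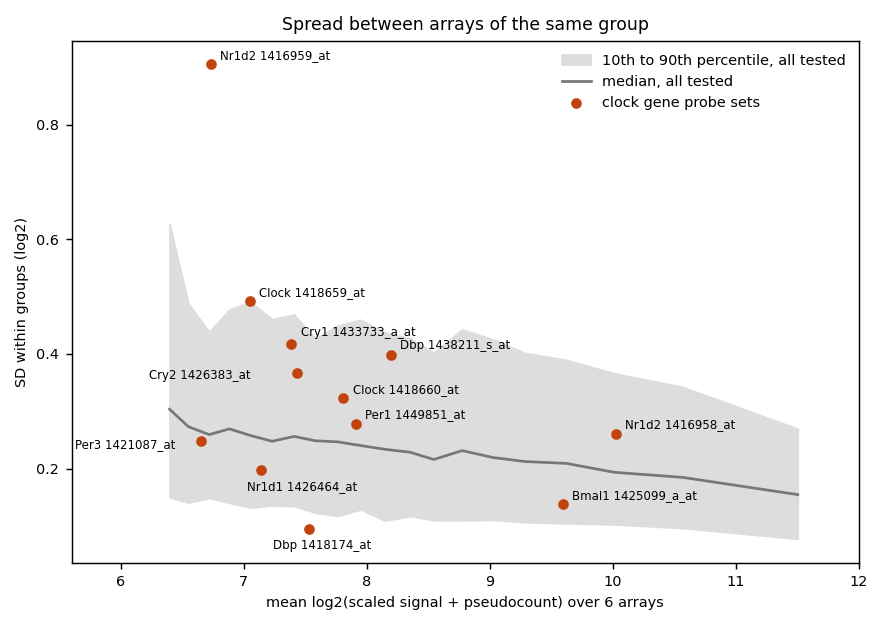
SD within groups (log2) against mean log2 signal over 6 arrays for the 12 tested clock gene probe sets (red points), over the 10th to 90th percentile (grey band) and median (grey line) of all tested probe sets in bins of like signal. Nr1d2 1416959_at lies far above the band, and Dbp 1418174_at lies below it.

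The members did not move as 1 block from array to array. Knockout array 1 was the lowest array for 4 of the 12 tested clock probe sets, or 33.3%, and for 28.2% of all tested probe sets. The same array was the highest for 1 of the 12, or 8.33%, and for 25.3% of all tested probe sets. Knockout array 3 was the highest for 4 of the 12, and for 15.3% of all tested probe sets. Over the 36 pairs of the 9 genes above the filter, with each gene read by its probe set of largest mean signal, 18 Pearson correlations over the 6 arrays were positive and 18 negative. They ranged from -0.84 for Bmal1 with Per3 to 0.96 for Clock with Nr1d1. With 6 arrays that share their scaling and RNA quality, these are descriptions only. Where both probe sets of a gene were above the filter, they correlated at 0.66 for Clock, 0.41 for Nr1d2 and 0.11 for Dbp over the 6 arrays. Without knockout array 1 these values were 0.50, -0.35 and -0.20, so the sign turned for Nr1d2 and Dbp. Same-gene pairs with a probe set below the filter correlated over the 6 arrays at -0.53 for Per2 and 0.35 to 0.81 for Per3.

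**Figure D4:**
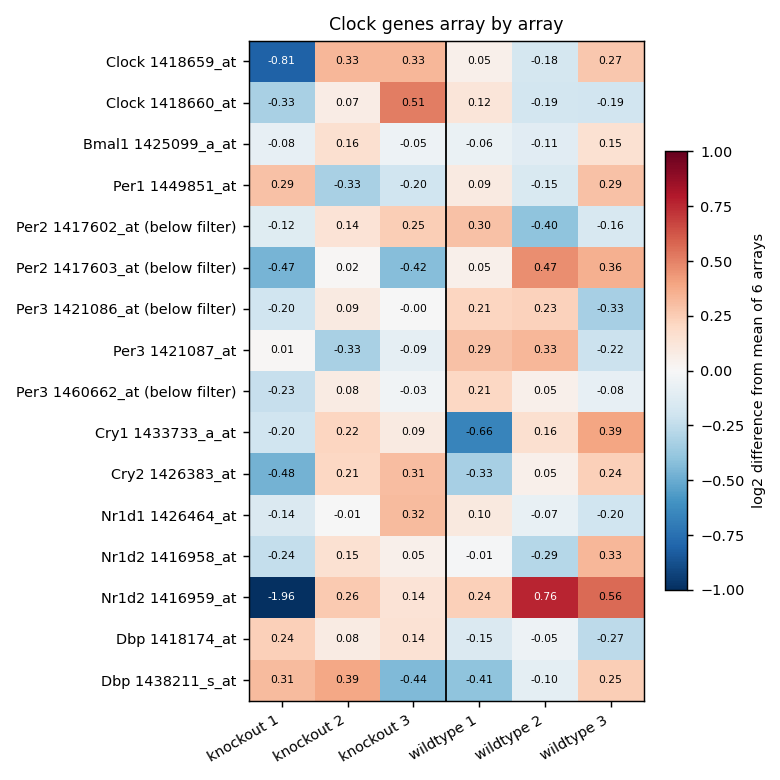
Log2 difference of each clock gene probe set from its mean over the 6 arrays, with 1 row per probe set and the 3 knockout arrays left of the 3 wildtype arrays. Colours are mixed within both groups, and the strongest single value is -1.96 for Nr1d2 1416959_at on knockout array 1.

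A list of 22 further clock genes, of which 17 were on the array, gave 25 tested probe sets, and 0 passed in either direction (smallest limma adjusted p = 0.999). At an unadjusted p under 0.05 there were 3 of 25, all negative, beside 3.82% of all tested probe sets. Of the 25 log2 fold changes, 11 were positive and 14 negative, with a median of -0.04, and 2 had groups that did not overlap, beside 9.1% of all tested probe sets. The 3 with the smallest unadjusted p came from genes whose other probe sets did not show the same size of difference.

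Wdr5, a chromatin factor that associates with PER proteins, had 72.6, 105 and 113 with probe set 1448389_at in knockout arrays, against 139, 208 and 148 in wildtype arrays. The log2 fold change was -0.66, against 0.00015 for its other probe set. Csnk1d, the kinase that marks PER proteins for degradation, had 97.7, 323 and 296 with probe set 1418889_a_at in knockout arrays, against 432, 596 and 377 in wildtype arrays. Its log2 fold change was -1.04, and -0.54 without knockout array 1, while its other 4 probe sets had -0.17 to -0.04. Rora, a nuclear receptor that activates Bmal1 through ROR elements, had -0.71 with probe set 1424035_at (-0.48 without knockout array 1 and -0.43 without wildtype array 2), and its other probe sets had -0.17 and -0.14. In all 3, knockout array 1 was the lowest and wildtype array 2 the highest of the 6 arrays. Without both of these arrays the values were -0.34 for Wdr5, -0.36 for Csnk1d and -0.21 for Rora. Nono, an RNA-binding partner of PER proteins, had -0.14 with probe set 1448103_s_at.

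Genes that feed light to the retinal clock or carry its output were covered by 9 of 14 listed genes and 7 tested probe sets, and 0 passed (smallest limma adjusted p = 0.999; 0 at an unadjusted p under 0.05). Of the 7, 3 were positive and 4 negative, with a median of -0.01. Opn3, which encodes the opsin encephalopsin, had a log2 fold change of 0.26, with 0.070 or 0.42 when knockout array 1 or 2 was left out and 0.098 when wildtype array 3 was. Opn4, which encodes melanopsin, the photopigment of intrinsically photosensitive ganglion cells, had -0.14. With wildtype array 1, 2 or 3 left out, the Opn4 value was -0.051, -0.0054 or -0.37. Vip, a neuropeptide of amacrine cells, had 0.093, and Gnat2, the cone transducin, had -0.04. Aanat, the enzyme that sets melatonin rhythm, and Drd4, a dopamine receptor of photoreceptors, were below the filter.

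Over the whole array, the trimmed mean of the deposited signals was 263 to 304 in knockout and 171 to 312 in wildtype arrays, before scaling. Of 23 markers of retinal cell types on the array, 22 were above the filter, the exception being Aqp4. The summed signal of 5 rod markers was 17084 to 20115 in knockout and 19218 to 21052 in wildtype arrays. Among the rod markers, Sag had groups that did not overlap, with a mean of 6717 in knockout and 7625 in wildtype arrays. Such separation was present in 9.1% of all tested probe sets. Nrl and Crx also had lower means in knockout arrays. Rcvrn had a higher one, at 2818 in knockout against 2407 in wildtype arrays. Gnat1 had a mean of 515 in knockout against 486 in wildtype arrays but a log2 fold change of -0.0062, with knockout array 1 the lowest array at 280. Of the retinal classes, the ganglion cell markers given beside Dbp were the one whose summed signal did not overlap between groups. The summed lens markers were 97.2 to 503 in knockout and 33.1 to 858 in wildtype arrays, and the summed microglia markers were 655 to 1258 in knockout and 693 to 759.8 in wildtype arrays. The summed pigment epithelium markers were 1741.5 to 2725 in knockout and 829 to 2412 in wildtype arrays. Among these, Rpe65, which was below the filter, had groups that did not overlap, with means of 71.7 in knockout and 50.3 in wildtype arrays. By their brightest probe sets, Ttr and Dct also had higher means in knockout arrays, and Tyrp1 and Rgr lower ones.

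**Figure D5:**
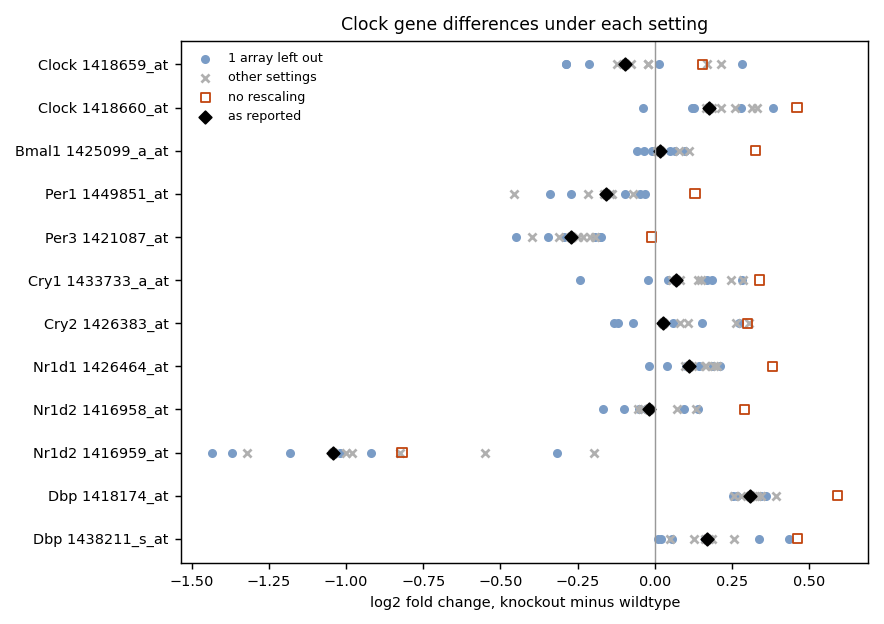
Log2 fold change, knockout minus wildtype, of the 12 tested clock gene probe sets as reported (black diamonds), with 1 array left out (blue points), without rescaling (red squares) and under the other settings (grey crosses). Dbp 1418174_at stays above 0 in each setting (0.25 to 0.36 with 1 array left out), while Bmal1, Cry1, Cry2 and Clock fall on both sides of 0.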

How the data were processed

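Total RNA of mouse retina was hybridised to 6 arrays, 3 knockout and 3 wildtype, grouped by the sample titles. Per the submitters' processing notes the authors used MAS5, and what they deposited is an intensity on a linear scale for each probe set on each array. The MAS5 version, scaling target and detection calls are not given in the sources used here. The targeted gene is not reported here. Nothing says that arrays came from separate animals, so the p-values rest on array-to-array spread that may be technical only.

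From these intensities, 64 control probe sets were left out and arrays were brought to 1 common mean, computed without the top 2% and the bottom 2% of signals. Before taking log2, 19.1 (the 20th percentile of signal) was added as a pseudocount, which understates folds of dim probe sets. The fit covered probe sets averaging more than 62.4, the 40th percentile, and was made in limma 3.58.1 (R 4.3.3; lmFit, eBayes with trend), with Benjamini-Hochberg adjustment over all 13575. The fit was tested on simulated data. A single value per array was compared by an exact permutation test, whose smallest p is 0.1. Probe sets with 1 gene symbol in the platform annotation (20380, of which 20351 matched RefSeq by Entrez identifier) were named; 691 had several symbols and 1555 none. Arrays have no counts, so their number limits the precision.

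Members and lists were chosen with earlier results of these data known. Every member probe set is named, and for each other list the 4 genes with the largest moderated statistic. Gene counts used the probe set of highest mean signal. Alternatives covered normalization, pseudocount, filter, trend, weighting of arrays, a replicate block, the mean of a gene's probe sets, and arrays left out.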

Additional observations from a re-analysis of the deposited data

How the results depend on the processing

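In none of the 17 settings did a clock probe set pass (lowest limma adjusted p = 0.594, for Nr1d2 1416959_at without knockout array 2), and 0 of the other clock genes passed. Of 198 cases of tested clock probe sets, 177 kept their sign and 21 turned. Those that never turned were Per3 1421087_at, Nr1d2 1416959_at and both of Dbp, of which 1438211_s_at ranged from 0.0098 to 0.43 with 1 array left out. Per3 1421087_at was as near to 0 as -0.0099 without rescaling. The 60th percentile filter left 6 clock probe sets tested, and the others have no value there. Over all probe sets, 2 passed as reported, while 10 did on signals left unscaled, 1 with no filter, 4 without both knockout array 1 and wildtype array 2 (the arrays with high 18S signal), and 0 to 4 with 1 array left out. Without rescaling the median of all tested probe sets moved to 0.29 and that of the clock genes was 0.33, against 0.048 as reported. Clock genes with a positive value, 1 probe set a gene, were 7 of 10 as reported, 9 without rescaling, 6 with the mean of a gene's probe sets, and 4 to 8 with 1 array left out (4 without knockout array 2 or 3 or wildtype array 1). The cause was not tested.

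Signs turned in these cases. Clock 1418659_at was 0.16 without rescaling, 0.22 with array weights and 0.17 without knockout array 1 and wildtype array 2. Per1 was 0.13 without rescaling. Nr1d2 1416958_at was 0.073 with median scaling, 0.29 without rescaling and 0.13 with array weights. Without rescaling Nono (0.18), Opn4 (0.13) and Gnat2 (0.27) were positive, Gnat2 was 0.055 with median scaling, and Vip was -0.023 with array weights. With 1 array left out the ranges were -0.29 to 0.28 and -0.038 to 0.38 for the Clock probe sets 1418659_at and 1418660_at, -0.059 to 0.098 for Bmal1, -0.24 to 0.28 for Cry1, -0.13 to 0.27 for Cry2, -0.020 to 0.21 for Nr1d1, -0.17 to 0.14 for Nr1d2 1416958_at, -0.013 to 0.22 for Vip and -0.085 to 0.014 for Gnat2.

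With the replicate block fit, 2 probe sets passed and 0 were clock genes. Probe sets with an unadjusted limma p under 0.05 rose from 518 to 766. Nr1d2 1416959_at had an unadjusted p of 0.010 and an adjusted p of 0.692 in that limma fit. For arrays 1, 2 and 3, the knockout and wildtype deviations from the group means had r = 0.18, -0.03 and 0.08. Between arrays of unlike number r ran from -0.29 to 0.26. Deviations within a group of 3 sum to 0, which constrains these values, so they cannot decide whether the numbers pair the arrays. The reported fit did not pair them.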
